A study of Mus musculus with 48 samples.

Results

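Unirradiated organoids from the submandibular salivary gland, a large paired saliva-producing gland, were compared at 2 ages of the same culture. The comparison used 6 of the 48 libraries of the series, chosen by their titles: 3 controls of the photon series collected on day 6 and 3 collected on day 2, with 1 library per mouse on each day and mice numbered 1 to 3. Days are counted from day 5 of culture, when the other organoids of the experiment were irradiated and the medium of all conditions was refreshed, so the libraries lie near culture days 11 and 7 and are 4 days apart. Both groups came from C57BL/6 mice aged 8 to 12 weeks, received no radiation, and grew in Matrigel, a basement membrane gel. Their medium held Wnt3a- and R-spondin1-conditioned medium, EGF, FGF2, insulin, N2, 1 µM dexamethasone and 10 µM of the kinase inhibitor Y27632. No later medium change is described in the labels, so days in culture and days since the medium change cannot be told apart. RNA was counted with QuantSeq, which reads the 3' ends of polyadenylated transcripts, so that counts should depend little on transcript length. Each count is 1 read.

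Salivary gland organoids grow from dissociated epithelial cells. In the gland itself, basal duct cells carry the keratins Krt5 and Krt14 and the transcription factor Trp63, luminal duct cells carry Krt7, Krt8 and Krt19, and acinar cells make saliva. Wnt and R-spondin proteins keep epithelial progenitors dividing, and ducts are known to secrete antimicrobial proteins into saliva.

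The 6 libraries held 2377331 to 4476994 gene counts at day 6 and 2154261 to 3279316 at day 2, and mitochondrial transcripts took 6.02 to 7.63% of them at day 6 and 4.28 to 6.84% at day 2. Neither difference could pass an exact two-sided permutation test of 3 against 3 libraries, whose smallest p is 0.1 (p = 0.4 for total counts and 0.2 for the mitochondrial share). The day 2 library of mouse 3 was the shallowest and stood apart from the other 2 day 2 libraries, at 32.9 on the second principal component against -37.8 and -25.9 (the day 6 libraries lay at 9.8, 28 and -7). That component held 30.8% of the variance. Its 10 most abundant genes also took 28.4% of its counts, against 15.1 and 22.6% in mice 1 and 2 at day 2. Counts of list members that passed are therefore also given without it where they differ. Levels below are in CPM, a gene's counts scaled to its library's total gene counts with TMM factors, and stand in the order of mice 1, 2 and 3. The most abundant gene on both days was Gm42418, at 101800 to 182500 CPM at day 6 and 81230 to 205200 CPM at day 2. Log2 fold changes are day 6 over day 2 with their standard error (SE) from 3 libraries per day, and a gene passed at an adjusted p below 0.05 by the quasi-likelihood F test of edgeR (Benjamini-Hochberg, over all genes tested).

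Epithelial keratin genes were abundant on both days. Krt5 stood at 2690, 2613 and 2469 CPM in the day 6 libraries, against 3629, 4069 and 3524 CPM in the day 2 libraries, and its log2 fold change of -0.53 ± 0.17 did not pass the test (adjusted p = 0.113). The luminal keratin Krt7 averaged 1341 CPM at day 6 and 1269 CPM at day 2. Most markers of differentiated saliva-producing cells were near absent. Of 23 acinar markers 6 could be tested, 14 had 3 counts or fewer over all 6 libraries, and Muc19, Bpifa2, Car6 and Chrm1 were among 8 with no count. The summed level of the acinar markers was 382 to 446 CPM at day 6 and 332 to 455 CPM at day 2. Among those tested, Slc12a2 averaged 191 CPM at day 6 and 129 CPM at day 2. Of 16 granular duct markers, among them the kallikreins of the Klk1 family, 1 could be tested (Crisp3). Kit, a marker of intercalated duct cells, had no count. Markers of other cell types were scarce as well: 13 of 18 immune markers (Ptprc, Adgre1 and Csf1r among them) had no count in any library, as did 6 of 14 fibroblast markers (Col1a2 and Col3a1 among them) and 4 of 12 endothelial markers (Cdh5 and Cldn5 among them). Of the 2 fibroblast markers tested Fbln1 did not pass, and the collagen VI chain Col6a1 had 4.62, 4.41 and 5 CPM in the day 6 libraries, against 0.281, 1.10 and 0.511 CPM in the day 2 libraries (2.86 ± 0.49, adjusted p = 0.00971; adjusted p = 0.0528 with mouse as a block; lost without the day 6 library of mouse 1). With a filter of 1 CPM in 3 libraries 2 of 3 fibroblast markers were higher and none lower, and with no filter on low counts it was 2 of 8. The summed level of the fibroblast markers was 22.03 to 28.7 CPM at day 6 and 22.5 to 27.9 CPM at day 2.

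Across all genes, 266 of 10595 were higher at day 6 (2.51% of those tested) and 371 were lower (3.5%), 637 in all (6.01%). The counts of each list below are to be read beside these shares. A fold change of at least 2 was seen in 232 of the higher and 305 of the lower genes, and one of at least 8 in 41 and 40. All 266 higher genes were higher in each of the 3 mice, and 370 of 371 lower genes were lower in each. The groups did not overlap for 266 higher and 370 lower genes, against 1315 and 1381 among all 10595 genes tested. A gene passes more readily where its libraries agree. Such agreement, here and for the genes named below, is therefore no separate support. The 2 libraries of a mouse come from the same animal, and with mouse as a block 305 genes passed, 117 higher and 188 lower. The count moved with single libraries: 1156 genes passed without the day 2 library of mouse 3, and 346 without that of mouse 2. Without the day 6 library of mouse 1, 2 or 3 it was 261, 368 or 382. With each of the 6 libraries left out in turn, 230 of the 637 calls (90 higher, 140 lower) held every time. With Gm42418 and mitochondrial genes left out, 634 genes passed, 270 higher and 364 lower.

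**Figure D1:**
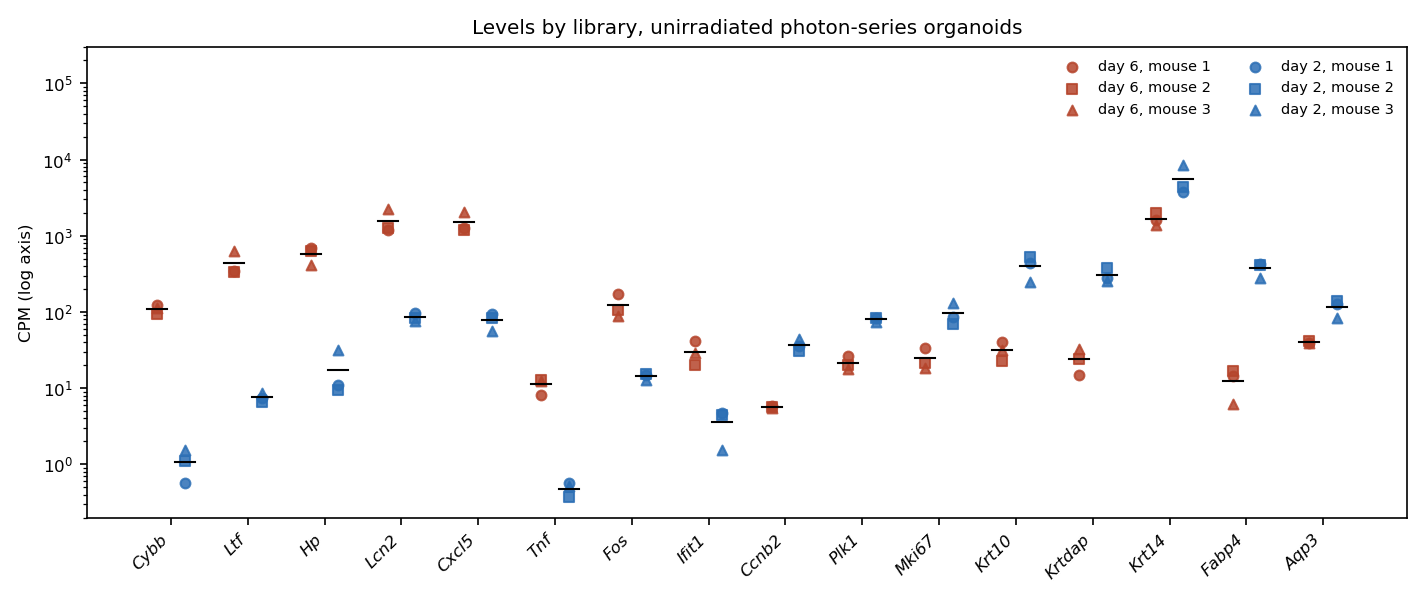
Levels of 16 genes in CPM (log axis) in each of the 6 libraries, with day 6 in red to the left of day 2 in blue, symbols for mice 1 to 3 and a bar at the mean of 3 libraries. The groups do not overlap for any gene drawn, and Cybb has the widest gap, with 94.4 to 122 CPM at day 6 against 0.562 to 1.53 CPM at day 2.

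Genes of mitosis fell together. Of 40 tested members of a list of G2 and mitosis genes, 37 were lower at day 6 and none was higher, with a median log2 fold change of -1.92, beside -0.005 over all genes tested and 3.5% of all genes lower. The summed level of the list was 592 to 744 CPM at day 6 and 2021 to 2597 CPM at day 2. In bulk organoids, fewer dividing cells and less of these RNAs in each cell cannot be told apart. Between 27 and 39 members were lower with any 1 library left out, and 30 with mouse as a block. Without the day 2 library of mouse 3 there were 39 lower and 1 higher.

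The B-type cyclins, which drive entry into mitosis, were among the clearest members. Ccnb2 (ENSMUSG00000032218) had 5.88, 5.73 and 5.55 CPM in the day 6 libraries, against 35.7, 30.4 and 43.5 CPM in the day 2 libraries. The 3 day 6 values were nearly equal and lay far under every day 2 value, a log2 fold change of -2.66 ± 0.24, adjusted p = 0.000969. Ccnb1 followed with 8.81, 9.26 and 6.39 CPM in the day 6 libraries, against 47.2, 37.4 and 37.9 CPM in the day 2 libraries (-2.33 ± 0.24, adjusted p = 0.00144). Plk1, the kinase that controls spindle assembly and mitotic exit, had 26.2, 19.8 and 17.8 CPM in the day 6 libraries, against 84.4, 83.3 and 73.1 CPM in the day 2 libraries. Its groups were also apart in every mouse (-1.90 ± 0.20, adjusted p = 0.00155). For Tpx2, a spindle assembly factor that activates Aurora A, the log2 fold change was -2.08 ± 0.21, adjusted p = 0.00144, and for Mki67, the proliferation marker Ki-67, it was -1.93 ± 0.30, adjusted p = 0.00682. The 3 members that did not pass were Pttg1, which encodes securin, at 0.43, Aurkb at -1.47 and Nek2 at -2.14.

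Promoters of the mitosis list were read from RefSeq windows of 300 bases (250 before to 50 after the transcription start, build GRCm38.p6), which were found for 33 of its 40 tested members. The letters TTTGAA, the core of the cell cycle homology region, occurred on either strand in 25 of them (75.8%), against 18.1% of 27025 promoters of that length and 11.6% of those of the genes tested here. CCAAT occurred in 26 (78.8%), against 37.9% and 38.8%. An E2F site, TTTCCCGC, occurred in none of the 33 and in 6 of 32 promoters of the S phase list (18.8%). It occurred in 1.11% of all promoters and 2.33% of those of the genes tested. Of the 4 promoters found for S phase genes that were lower, 0 held it. The promoters of 2 genes that fell are shown as examples of both motifs, 5′ to 3′ on the gene's strand, with every TTTGAA and CCAAT in capitals and likewise their reverse complements.
Ccnb2 (chr9:70421505-70421804, minus strand): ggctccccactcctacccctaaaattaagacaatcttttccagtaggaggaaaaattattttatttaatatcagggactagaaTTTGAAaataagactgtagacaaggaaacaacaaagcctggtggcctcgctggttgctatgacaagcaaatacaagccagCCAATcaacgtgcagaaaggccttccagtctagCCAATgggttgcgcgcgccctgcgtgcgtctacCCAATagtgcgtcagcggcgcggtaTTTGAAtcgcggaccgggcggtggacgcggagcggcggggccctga
Plk1 (chr7:122159185-122159484, plus strand): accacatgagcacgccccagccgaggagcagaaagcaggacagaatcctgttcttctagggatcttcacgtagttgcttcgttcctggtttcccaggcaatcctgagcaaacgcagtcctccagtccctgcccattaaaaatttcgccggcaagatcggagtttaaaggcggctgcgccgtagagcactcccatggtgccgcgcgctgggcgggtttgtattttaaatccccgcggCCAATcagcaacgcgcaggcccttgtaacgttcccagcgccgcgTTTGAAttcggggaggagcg
Ccnb2 holds 5 such matches and Plk1 2. Both genes carry each motif, and Ccnb2 carries TTTGAA at 2 places and CCAAT at 3.

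A few genes of DNA replication fell. Of 39 tested members of an S phase list, 5 were lower and none higher, with a median of -0.75 and 38 members below 0. The 5 were Ccne2, Clspn, Tk1, Dut and Rrm1, of which only Tk1 passed with mouse as a block (adjusted p = 0.0369, against 0.0952 for Ccne2, 0.0641 for Dut and 0.0753 for Rrm1). Tk1, the thymidine kinase that salvages a DNA building block, had 17.2, 15.4 and 14.7 CPM in the day 6 libraries, against 44.4, 39.3 and 35.8 CPM in the day 2 libraries (-1.33 ± 0.20, adjusted p = 0.00549). The clamp Pcna had 47.01, 51.1 and 53.3 CPM in the day 6 libraries, against 59.1, 58.3 and 56.8 CPM in the day 2 libraries. Its log2 fold change of -0.20 ± 0.16 did not pass (adjusted p = 0.576). The number of members lower was 9 without the day 2 library of mouse 3, 3 without that of mouse 2, and 1, 2 or 1 without the day 6 library of mouse 1, 2 or 3. None of 7 inhibitors of cyclin-dependent kinases passed, with a median of 0.54, and 1 was higher without the day 2 library of mouse 3. Among them Cdkn1a, the p53-inducible inhibitor p21, had 968, 1235 and 1113 CPM in the day 6 libraries, against 461, 795 and 626 CPM in the day 2 libraries. Its groups did not overlap, but the difference did not pass (0.82 ± 0.22, adjusted p = 0.0675). Ccnd1, the cyclin of early G1, had a log2 fold change of 0.07 ± 0.16, adjusted p = 0.891, and its sign turned with a library left out. Of 30 tested p53 targets 1 was higher and none lower, which is near the 2.51% of all genes that were higher. It was the stress cytokine Gdf15 (2.22 ± 0.34, adjusted p = 0.00672). Without the day 2 library of mouse 3 there were 3 higher and 1 lower.

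**Figure D2:**
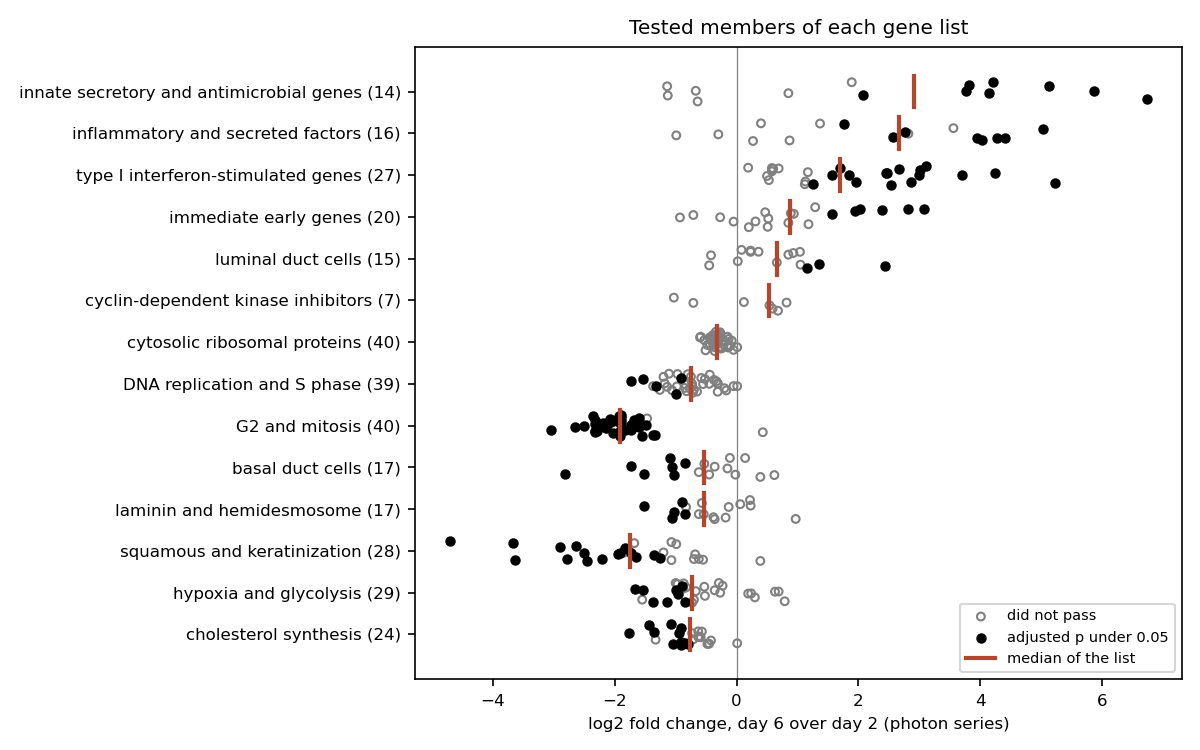
Log2 fold changes (day 6 over day 2) of the tested members of 14 gene lists, with the number tested in brackets, filled points for members past an adjusted p of 0.05 and a red bar at the list's median. The G2 and mitosis list lies almost wholly to the left of 0 with a median of -1.92, and the innate secretory list reaches farthest to the right with a median of 2.92.

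Squamous genes, which build the layers of skin and oral epithelium, also fell. Of 28 tested members of a keratinization list of 35 genes 16 were lower and none was higher, with a median of -1.75 and a summed level of 4050 to 4516 CPM at day 6 and 7567 to 12830 CPM at day 2. Leaving out the day 2 library of mouse 3 gave 25, and leaving out any other library gave 11 to 19. Krt10, a keratin of suprabasal keratinocytes, had 40.5, 22.9 and 31.9 CPM in the day 6 libraries, against 436, 522 and 247 CPM in the day 2 libraries. Every day 2 library lay far above the highest day 6 library (-3.64 ± 0.32, adjusted p = 0.000909). Krtdap, a secreted keratinocyte differentiation factor, had 14.7, 24.2 and 33.04 CPM in the day 6 libraries, against 279.8, 376 and 254 CPM in the day 2 libraries, again with no overlap (-3.67 ± 0.31, adjusted p = 0.000717). Krt4, a keratin of mucosal squamous epithelium, had a log2 fold change of -2.90 ± 0.31, adjusted p = 0.00171. The late cornified envelope gene Lce3c, which lies in a family of near-identical copies whose reads the counting may split, had 1.89, 2.20 and 1.94 CPM at day 6 against 28.97, 90.99 and 37.3 CPM at day 2 (-4.70 ± 0.52, adjusted p = 0.00184). The mouse 2 library held the most of it at day 2. Krt13, another mucosal keratin, averaged 253 CPM at day 6 and 582 CPM at day 2 and did not pass, with an adjusted p that rounds to 0.05 (log2 fold change -1.20 ± 0.30). One member of the list, Sprr1a, was above 0 (log2 fold change 0.39, adjusted p = 0.391).

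Other genes of surface epithelia fell far. Gsdmc (ENSMUSG00000079025), a pore-forming gasdermin, had no count in any day 6 library, against 8.72, 12.5 and 5.12 CPM in the day 2 libraries, so it was at least 32.3-fold lower at day 6 (75 counts at day 2, with the floor at 3 counts over the day 6 group). Alox12b, the lipoxygenase of the skin barrier, had 1 count at day 6 and 90 at day 2. The ratio of day 2 to day 6 was 116 (counting interval 20.3 to 4640), and the call was lost without the day 6 library of mouse 1. Dsg1b, a desmosomal cadherin, fell by 5.36 ± 0.72 on the log2 scale (adjusted p = 0.00361), and Serpinb3a, an intracellular protease inhibitor, had 0.839, 0.882 and 1.67 CPM in the day 6 libraries, against 40.8, 57.2 and 18.4 CPM in the day 2 libraries (-5.07 ± 0.52, adjusted p = 0.00144). Its day 6 libraries were all close to 0. Gsdmc, Dsg1b and Serpinb3a belong to families of near-identical copies among which the counting may split reads.

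Basal cell genes fell in part. Of 17 tested basal duct markers 7 were lower and none higher, with a median of -0.53, and their summed level was 8579 to 9479 CPM at day 6 against 14530 to 20610 CPM at day 2. Krt14 had 1619, 1964 and 1388 CPM in the day 6 libraries, against 3769, 4347 and 8410 CPM in the day 2 libraries. The day 2 library of mouse 3 was the highest, and the groups did not overlap (-1.73 ± 0.32, adjusted p = 0.0132), although the call was lost without the day 6 library of mouse 1 or of mouse 3 and with mouse as a block (adjusted p = 0.064). Sfn, the epithelial 14-3-3 sigma protein, passed with each library left out in turn (-1.52 ± 0.20, adjusted p = 0.00346). Trp63, the basal lineage transcription factor, was level at a mean of 109 CPM at day 6 and 110.0 CPM at day 2 (-0.02 ± 0.20, adjusted p = 0.977), and its sign turned with the scaling. Of 17 tested genes of laminins and hemidesmosomes, which tie basal cells to the basement membrane, 5 were lower, 3 of them also basal markers, among them Itgb4 and Itga6 (adjusted p = 0.0517 and 0.0879 with the block), with a median of -0.54. The 7 basal markers became 4, 1, 3 or 2 without the day 2 library of mouse 2 or the day 6 library of mouse 1, 2 or 3, and 2 with mouse as a block. Without the day 2 library of mouse 3 there were 10 lower and 1 higher. The 5 laminin and hemidesmosome genes became 1, 0, 0 or 1 under the first 4 omissions, 7 without the day 2 library of mouse 3, and 0 with the block.

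A few luminal duct markers rose. Of 15 tested, 3 passed, all higher, with a median of 0.66, against 2.51% of all genes higher. The summed level was 8859 to 9992 CPM at day 6 and 6003 to 7004 CPM at day 2. Cldn3, a tight junction claudin, had 46.2, 59.96 and 53.3 CPM in the day 6 libraries, against 21.1, 20.9 and 19.9 CPM in the day 2 libraries. Day 2 libraries were nearly equal and all day 6 libraries lay above them (1.36 ± 0.19, adjusted p = 0.00416). Tfcp2l1, a transcription factor of ducts, averaged 2116 CPM at day 6 and 956 CPM at day 2 (1.15 ± 0.21, adjusted p = 0.0135; adjusted p = 0.0528 with mouse as a block). Cftr, the chloride channel of ducts, averaged 4.89 CPM at day 6 and 0.924 CPM at day 2 (2.43 ± 0.57, adjusted p = 0.04; adjusted p = 0.0664 with the block). The 3 calls became 7 without the day 2 library of mouse 3, and 1 without that of mouse 2 or the day 6 library of mouse 1 or 2. They became 1 with the block. Epcam, Krt7, Krt8, Krt18 and Krt19 did not pass, with log2 fold changes between -0.42 and 0.23.

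Genes for moving salt and water went both ways. Of 21 tested, 4 were higher and 2 lower, with a median of 0.15. Clca3a2, a secreted regulator of chloride channels, had 67.99, 29.1 and 36.4 CPM in the day 6 libraries, against 1.12, 1.10 and 2.05 CPM in the day 2 libraries. No day 2 library exceeded 2.05 CPM (5.02 ± 0.47, adjusted p = 0.00107). Atp1b1, the beta subunit of the sodium pump, had 1116, 1279 and 1112 CPM in the day 6 libraries, against 364, 309 and 410.2 CPM in the day 2 libraries, a rise seen alike in every mouse (1.70 ± 0.17, adjusted p = 0.00144). Fxyd2, the gamma subunit of the same pump, which was not on the list, had 62.1, 67.01 and 31.9 CPM in the day 6 libraries, against 3.09, 1.10 and 4.60 CPM in the day 2 libraries (4.23 ± 0.45, adjusted p = 0.00163). Aqp3, the water and glycerol channel of basal membranes, had 39.03, 41.4 and 39.4 CPM in the day 6 libraries, against 128, 138 and 84.4 CPM in the day 2 libraries. The 3 day 6 values were nearly equal and lay below all day 2 values (-1.55 ± 0.21, adjusted p = 0.00378). Kcnn4, a calcium-gated potassium channel of acinar and other secretory cells, also fell (-2.12 ± 0.29, adjusted p = 0.00421), and was the single acinar marker that passed (1 other was higher without the day 2 library of mouse 3). Aqp5, the apical water channel of acinar cells, had 10.1, 12.3 and 4.17 CPM in the day 6 libraries, against 7.03, 11.4 and 25.1 CPM in the day 2 libraries, with overlapping groups (-0.67 ± 0.52, adjusted p = 0.57). The 4 higher genes became 2 without the day 2 library of mouse 1 or 2 or the day 6 library of mouse 2 or 3 and with mouse as a block, and 6 without the day 2 library of mouse 3.

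Innate secretory genes rose in part and over a wide range. Of 39 listed genes 14 could be tested, 8 of them were higher and none lower, with a median of 2.92; the other 25 were too low to test and 9 of them had no count at all. The summed level of the list was 5972 to 7069 CPM at day 6 and 2388 to 2429 CPM at day 2. A gene could enter the test through the libraries of 1 day alone, so the median covers the tested genes only. Between 7 and 11 members were higher with any 1 library left out, and without the day 2 library of mouse 3 there were 11 higher and 3 lower. Cybb (ENSMUSG00000015340), the catalytic subunit of the superoxide-producing NADPH oxidase NOX2, had 122, 94.3 and 111 CPM in the day 6 libraries, against 0.562, 1.10 and 1.53 CPM in the day 2 libraries. Day 2 libraries were close to 0 and day 6 libraries close to each other, a log2 fold change of 6.74 ± 0.31, adjusted p = 4.3e-05. Ltf (ENSMUSG00000032496), the iron-binding antimicrobial protein lactoferrin, had 343, 336 and 624 CPM in the day 6 libraries, against 7.31, 6.60 and 8.70 CPM in the day 2 libraries. Mouse 3 was the highest at day 6, and no day 2 library passed 8.70 CPM (5.86 ± 0.33, adjusted p = 0.000131). Hp, the haemoglobin-binding protein haptoglobin, had 696, 629 and 407 CPM in the day 6 libraries, against 10.97, 9.54 and 31.2 CPM in the day 2 libraries (5.13 ± 0.45, adjusted p = 0.000909).

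Lcn2 (ENSMUSG00000026822), a lipocalin that captures bacterial siderophores, was the most abundant of the risen innate genes. It had 1196, 1278 and 2271 CPM in the day 6 libraries, against 95.9, 84.4 and 76.2 CPM in the day 2 libraries, and day 2 libraries were close to each other while mouse 3 led at day 6 (4.21 ± 0.29, adjusted p = 0.000317). Complement C3 and the whey acidic protein gene Wfdc18 were also higher, with log2 fold changes of 2.07 ± 0.28 (adjusted p = 0.0039) and 3.82 ± 0.37 (adjusted p = 0.00139). Defb1, Slpi, S100a8 and S100a9 of the same list did not pass and had log2 fold changes of -0.67, -1.13, -0.64 and -1.14. Some of the risen genes are also known from neutrophils and macrophages. The defining leukocyte markers Ptprc, Csf1r, Adgre1, Tyrobp and Fcer1g had no count in any of the 6 libraries. The summed level of the 18 immune markers was 127 to 304 CPM at day 6 and 128 to 233 CPM at day 2, mostly from S100a8 and Cd14. Of 3 immune markers tested Cd14, the lipopolysaccharide co-receptor, passed, with 95.3, 43.6 and 139.7 CPM in the day 6 libraries, against 14.1, 8.44 and 2.56 CPM in the day 2 libraries (3.39 ± 0.54, adjusted p = 0.00727), and it is also known from epithelia. Another of the 3, Cd68, averaged 3.66 CPM at day 6 and 5.31 CPM at day 2. Its groups overlapped and it did not pass (-0.44 ± 0.50, adjusted p = 0.735). A pair of myeloid markers too low for the filter had counts at day 6 alone. Itgam, the CD11b integrin of myeloid cells, had 2.52, 2.20 and 7.22 CPM in the day 6 libraries (43 counts) and no count in the day 2 libraries. Lyz2, the lysozyme of myeloid cells, had 2.94, 3.09 and 3.89 CPM in the day 6 libraries (35 counts) and no count in the day 2 libraries. With a filter of 1 CPM in 3 libraries 3 of 5 immune markers were higher and none lower, as with all 24 photon-series libraries in the fit, and without the day 2 library of mouse 3 it was 2 of 4. The part of myeloid cells in the innate secretory and inflammatory changes was not tested.

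Inflammatory signals rose beside them. Of 27 listed genes for chemokines, cytokines and other secreted factors 16 could be tested, and 8 were higher and none lower, with a median of 2.67; 6 to 9 were higher with any 1 library left out (9 without the day 2 library of mouse 3), and 1 was lower without the day 6 library of mouse 3. This median also covers only tested genes, which could enter through the libraries of 1 day alone. It was 2.57 over 19 genes with a filter of 1 CPM in 3 libraries, and 2.33 over 25 with no filter on low counts. Cxcl5 (ENSMUSG00000029371), a chemokine that attracts neutrophils, had 1267, 1182 and 2067 CPM in the day 6 libraries, against 93.6, 82.9 and 55.8 CPM in the day 2 libraries. All day 6 libraries lay far above the highest day 2 library (4.27 ± 0.30, adjusted p = 0.000317). Cxcl2, of the same CXCR2-binding family, had 64, 57.8 and 125 CPM in the day 6 libraries, against 5.06, 6.97 and 3.58 CPM in the day 2 libraries (3.95 ± 0.39, adjusted p = 0.00139). Tnf, the cytokine tumour necrosis factor, had 8.18, 12.8 and 12.5 CPM in the day 6 libraries, against 0.562, 0.367 and 0.511 CPM in the day 2 libraries. Its day 2 values rest on 4 counts in all, and the gap was wide in every mouse (4.40 ± 0.45, adjusted p = 0.00144). Cxcl17, a mucosal chemokine, had a log2 fold change of 1.76 ± 0.23, adjusted p = 0.00319. Ccl20, the ligand of CCR6, had 27.9, 4.41 and 73.3 CPM at day 6 and 2.53, 0 and 0 CPM at day 2. Its spread among day 6 libraries was wide (5.03 ± 1.14, adjusted p = 0.0341). The call was lost without the day 2 library of mouse 1 (log2 fold change 9.78) or 2 or the day 6 library of mouse 1 or 3. Il33, an alarmin stored in epithelial nuclei, did not pass (log2 fold change -0.30, adjusted p = 0.478).

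Genes that type I interferons induce rose as well. Of 40 listed, 27 could be tested, 16 were higher, none was lower and all 27 were above 0, with a median of 1.69. Here too a gene could enter the test through the libraries of 1 day alone, so signs and median cover the tested genes only. The median was 1.21 over 34 genes with a filter of 1 CPM in 3 libraries. It was 1.48 over 40 genes with no filter on low counts. The summed level was 875 to 1447 CPM at day 6 and 430 to 579 CPM at day 2. Without the day 2 library of mouse 2 the count was 6, without the day 6 library of mouse 1 it was 7, and without that of mouse 2 it was 10. It was 18 without the day 2 library of mouse 3 and 14 with mouse as a block. Ifit1, which holds back translation of RNA without a host cap, had 41.3, 20.3 and 28.9 CPM in the day 6 libraries, against 4.78, 4.40 and 1.53 CPM in the day 2 libraries. Mouse 1 was the highest at day 6, and the groups were apart (3.00 ± 0.40, adjusted p = 0.00361). Ifi44 had 117, 79.8 and 61.4 CPM in the day 6 libraries, against 21.6, 13.6 and 10.7 CPM in the day 2 libraries (2.46 ± 0.32, adjusted p = 0.00346), and Oasl2, an oligoadenylate synthetase-like antiviral protein, averaged 14.1 CPM at day 6 and 2.40 CPM at day 2 (2.54 ± 0.32, adjusted p = 0.00301). Ifit3b, a near copy of Ifit3 whose reads the counting may split, had 59 counts at day 6 and 2 at day 2, a ratio of 22.8 (counting interval 6.05 to 193). None of 14 tested genes of MHC class I presentation passed (median 0.29), and 2 were higher without the day 2 library of mouse 3.

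Promoter windows were found for 12 tested members of the inflammatory list and 20 of the interferon list. GGAATTTCC, part of a site of the NF-kB family, occurred in 6 of the 12, against 0.322% of all 27025 promoters and 0.359% of those of the genes tested. TTCNNTTTC, from the core of the interferon-stimulated response element, occurred in 13 of the 20, against 8.57% and 6.65%. Among the members that were higher, GGAATTTCC occurred in 2 of 5 promoters of the inflammatory list. TTCNNTTTC occurred in 9 of 13 of the interferon list. Both strands were searched, and these 2 motifs were added after the gene results were seen. The promoter of 1 risen gene of each list is shown 5′ to 3′ on the gene's strand, with the matches in capitals.
Cxcl2 (chr5:90903649-90903948, plus strand): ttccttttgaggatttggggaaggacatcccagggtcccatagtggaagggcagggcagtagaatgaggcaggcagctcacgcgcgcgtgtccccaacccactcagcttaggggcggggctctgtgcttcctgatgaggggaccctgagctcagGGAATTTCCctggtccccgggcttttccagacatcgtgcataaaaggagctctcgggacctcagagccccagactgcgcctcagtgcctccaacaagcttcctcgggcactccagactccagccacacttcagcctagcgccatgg
Ifit1 (chr19:34640639-34640938, plus strand): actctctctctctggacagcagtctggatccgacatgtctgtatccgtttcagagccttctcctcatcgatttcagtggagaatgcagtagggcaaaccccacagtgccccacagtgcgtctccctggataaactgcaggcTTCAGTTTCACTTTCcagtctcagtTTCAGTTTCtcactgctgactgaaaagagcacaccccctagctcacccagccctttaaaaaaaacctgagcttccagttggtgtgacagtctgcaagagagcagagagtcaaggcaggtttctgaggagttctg
Cxcl2 holds 1 match and Ifit1 holds 3, of which 2 overlap. A match describes letters in this window and does not show that a factor binds there.

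**Figure D3:**
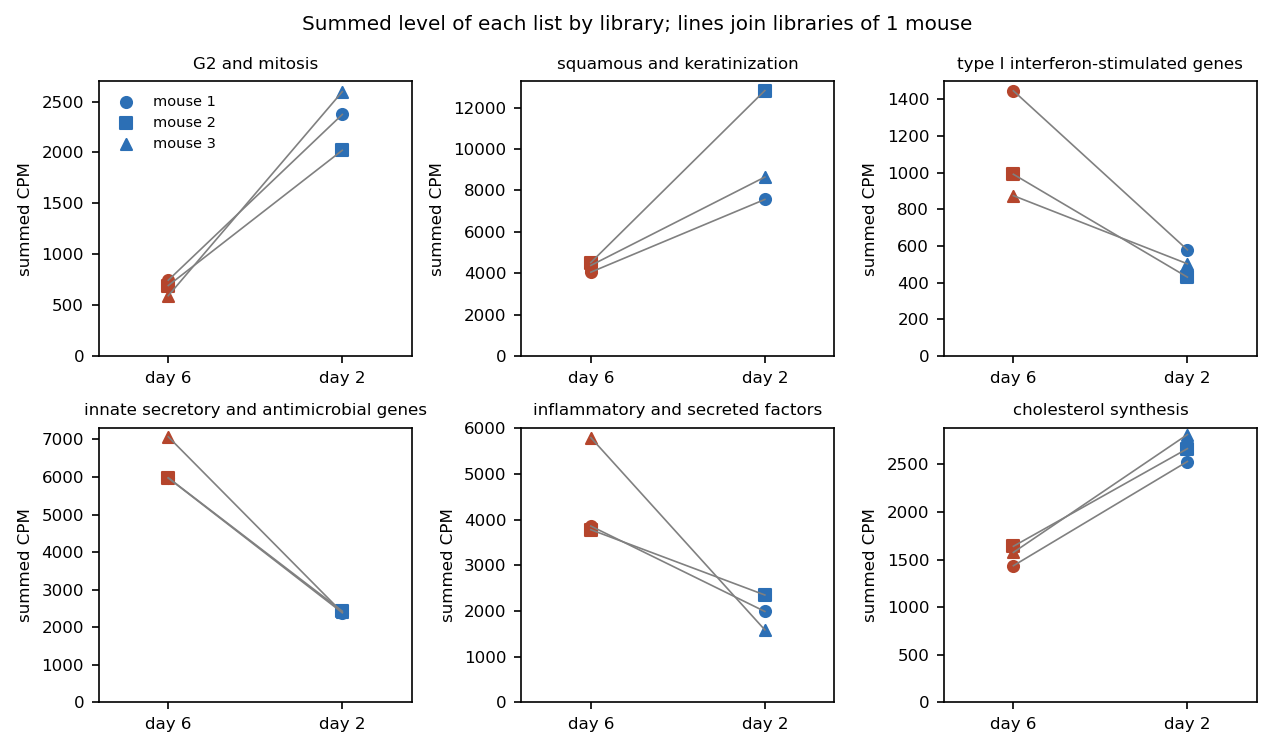
Summed CPM of 6 gene lists in each library, with day 6 (red) left of day 2 (blue) and grey lines joining the 2 libraries of a mouse; each axis starts at 0. Every mouse shows the same direction in each panel, for example 592 to 744 CPM at day 6 against 2021 to 2597 CPM at day 2 for G2 and mitosis.

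Immediate early genes, which growth factors and stress switch on within minutes, were higher in 6 of 20 tested cases and lower in none, with a median of 0.87. Fos, a subunit of the transcription factor AP-1, had 172, 105 and 88.6 CPM in the day 6 libraries, against 14.9, 15.4 and 12.8 CPM in the day 2 libraries. Day 2 libraries were close to each other and far lower (3.08 ± 0.28, adjusted p = 0.00104). Egr1, a zinc finger factor, had 522, 451 and 355 CPM in the day 6 libraries, against 53.1, 110.1 and 92.6 CPM in the day 2 libraries, with no overlap (2.38 ± 0.28, adjusted p = 0.00234). Fosb and Ier3 were higher too (2.82 ± 0.40, adjusted p = 0.00439 and 1.56 ± 0.23, adjusted p = 0.00528). Jun, the partner of Fos, did not pass (log2 fold change 0.20, adjusted p = 0.729). Between 4 and 7 members were higher with any 1 library left out, with 7 without the day 2 library of mouse 3.

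Some groups of metabolic genes fell. Of 24 tested genes of cholesterol synthesis and uptake 11 were lower and none higher, with a median of -0.76 and 23 of 24 below 0; their summed level was 1435 to 1639 CPM at day 6 and 2529 to 2812 CPM at day 2. Cyp51, a sterol demethylase, had 153, 172 and 159 CPM in the day 6 libraries, against 309.9, 310 and 376 CPM in the day 2 libraries. Every day 6 library lay under every day 2 library (-1.04 ± 0.16, adjusted p = 0.00584), and its call was lost without the day 6 library of mouse 1. The 11 became 1, 4 or 6 without the day 6 library of mouse 1, 2 or 3, 14 without the day 2 library of mouse 3, and 4 with mouse as a block. Of 29 genes of hypoxia and glycolysis 8 were lower and none higher, with a median of -0.73, among them Bnip3, a mitophagy receptor (-1.38 ± 0.23, adjusted p = 0.00894). That count was 3 without the day 2 library of mouse 2, 14 without that of mouse 3, 1 without the day 6 library of mouse 1 or 2, and 4 with the block.

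The fatty acid carriers Fabp4 and Fabp5 fell, as 2 of the 3 lower genes among 19 tested of fatty acid synthesis and storage; without the day 2 library of mouse 3 there were 4 lower and 2 higher. Fabp4 (ENSMUSG00000062515) had 14.5, 16.8 and 6.11 CPM in the day 6 libraries, against 426, 411 and 280.3 CPM in the day 2 libraries. The day 2 libraries lay far above the highest day 6 library (-4.92 ± 0.36, adjusted p = 0.000317). Fabp5, the epidermal form, had 865, 887 and 697 CPM in the day 6 libraries, against 2001, 2328 and 2694 CPM in the day 2 libraries (-1.52 ± 0.19, adjusted p = 0.00287). None of 40 cytosolic ribosomal protein genes passed, with 39 below 0 and a median of -0.32. Their median difference was -0.50 in mouse 1, -0.47 in mouse 2 and 0.31 in mouse 3, and 8 were lower without the day 2 library of mouse 3 and 3 with all 24 photon-series libraries in the fit. None of 28 genes of ribosome biogenesis passed (1 was lower without the day 2 library of mouse 3), and none of 30 nuclear genes of the respiratory chain.

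The unirradiated organoids of the proton series offer the same day 6 and day 2 libraries, as controls of irradiations done on other days, and share no library with the photon series. Whether the same 3 mice served both series is not stated in the labels. In them 1036 genes were higher (10.6% of 9814 tested) and 1193 lower (12.2%). Of 562 photon-series calls that were tested in both series, 476 (84.7%) passed in the same direction in the proton series, where 22.7% of all genes passed, 546 (97.2%) had the same sign (65.7% over all genes), and 2 passed in opposite directions. The 476 made up 21.8% of the 2188 proton-series calls. In the proton series 38 of 39 mitosis genes and 26 of 27 squamous genes were lower, and 13 of 14 inflammatory genes and 10 of 20 interferon-induced genes were higher. Of 11 innate secretory genes tested there, 7 were higher and 4 lower. In the photon series none of the 14 tested passed as lower, but 4 had log2 fold changes below 0. Without the photon-series day 2 library of mouse 3, 3 were lower. No gene of this list passed the test of the difference between the series that is given below. Ltf had a log2 fold change of 5.86 ± 0.33 in the photon series and 7.25 ± 0.27 in the proton series, Krt10 had -3.64 ± 0.32 and -4.80 ± 0.14, and Ccnb2 had -2.66 ± 0.24 and -1.86 ± 0.21.

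The size of the change differed between the series for 21 of 10578 genes (0.199%), tested as the difference between the 2 fold changes in the 12 unirradiated libraries; 1115 had an unadjusted p below 0.05. In 8 (0.0756%) the photon-series change was the higher and in 13 (0.123%) the lower. With mouse as a block 6 genes passed, and leaving out 1 of the 12 libraries gave 6 to 97, with 97 without the photon-series day 2 library of mouse 3. Hmga2 (ENSMUSG00000056758), a chromatin protein of embryonic and proliferating cells that has the smallest adjusted p of the 21, had 54.6, 53.8 and 56.6 CPM in the day 6 libraries, against 334, 306 and 343 CPM in the day 2 libraries of the photon series. In the proton series it had 408, 381 and 358 CPM in the day 6 libraries, against 564, 519.8 and 566 CPM in the day 2 libraries. Libraries of a group were nearly equal, and the difference of -2.03 ± 0.17 passed under every omission and with the block (adjusted p = 4.88e-05; 0.0103 with the block). Fos had 109, 137 and 134 CPM in the day 6 libraries, against 75.6, 63.4 and 82.7 CPM in the day 2 libraries of the proton series, where day 2 libraries were not low as they were in the photon series. Its difference was 2.32 ± 0.33 (adjusted p = 0.00996). Egr1 had 176, 133 and 137 CPM in the day 6 libraries, against 160.4, 164 and 112 CPM in the day 2 libraries of the proton series, with overlapping groups, and a difference of 2.38 ± 0.34 (adjusted p = 0.00996; 0.0606 with the block).

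Metallothioneins, which bind zinc and copper, differed as well. Mt1 had 781, 873 and 1035 CPM in the day 6 libraries, against 2276, 1909 and 2746 CPM in the day 2 libraries of the photon series. In the proton series it had 1722, 1891 and 1631 CPM in the day 6 libraries, against 1781, 1678 and 1584 CPM in the day 2 libraries. It fell in the photon series with no overlap (-1.37 ± 0.20, adjusted p = 0.00528) and its groups overlapped in the proton series, a difference of -1.41 ± 0.22 (adjusted p = 0.0161; 0.0534 with the block; lost under 6 of 12 omissions). Mt2 followed with -1.28 ± 0.21 in the photon series and 0.02 ± 0.11 in the proton series (adjusted p of the difference = 0.0472; 0.232 with the block; lost under 10 of 12 omissions). The zinc exporter Slc30a1 had -0.98 ± 0.21 and 0.84 ± 0.18 (adjusted p of the difference = 0.00996; 0.0678 with the block; lost without the photon-series day 6 library of mouse 1).

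**Figure D4:**
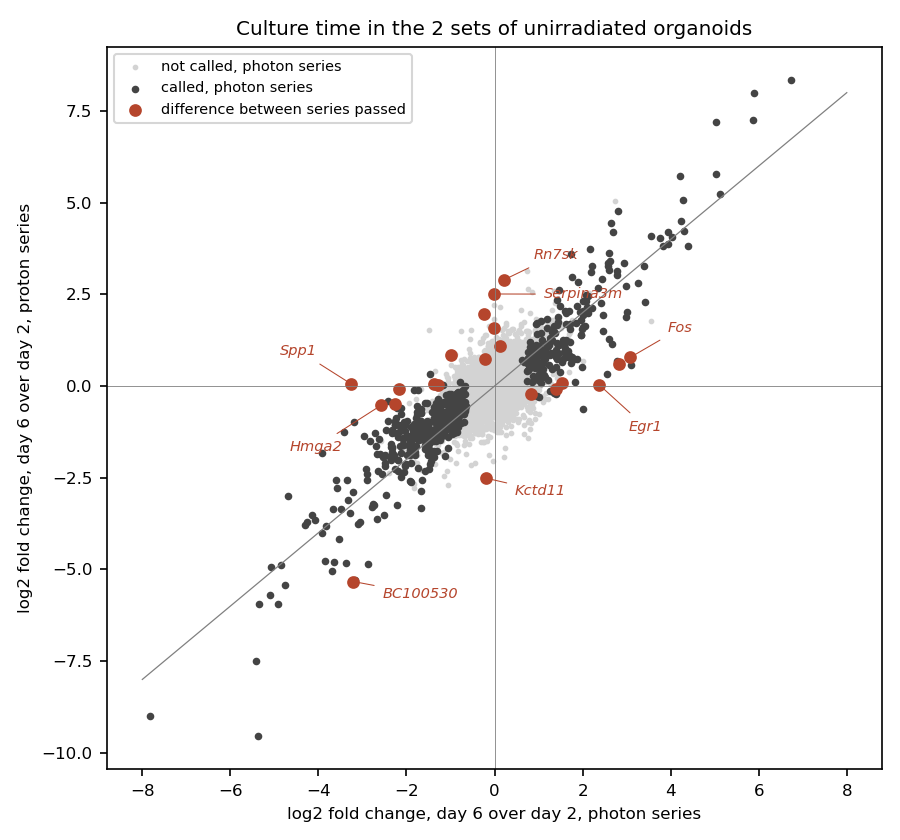
Log2 fold changes (day 6 over day 2) of genes tested in both sets of unirradiated organoids, photon series on the horizontal and proton series on the vertical axis, with a diagonal of equal change. Most photon-series calls (dark) lie near the diagonal, and the 21 genes whose difference passed (red, 8 of them labelled) include Fos and Egr1 below and Spp1 and Hmga2 above it.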

How the data were processed

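Libraries were made from 100 ng of RNA with integrity numbers above 9, per the labels' protocols. The deposited files hold raw counts of reads per gene, and the submitters' processing notes name GRCm39 and edgeR. Aligner, counting program, strand setting and annotation were not given in the sources used here, so overlapping and antisense genes cannot be told apart. No coordinates of that build are printed. Each file lists 47643 identifiers, of which 47224 matched a symbol, and 5 summary lines that were left out; reads outside genes came to 7.88 to 12.1% of gene counts. The 4 deposited CPM tables were not used.

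The 6 photon-series controls were fitted with edgeR 4.0.16 (R 4.3.3; TMM, filterByExpr, quasi-likelihood F test, Benjamini-Hochberg threshold 0.05), and likewise the 6 proton-series controls and the difference over all 12. SE is the log2 fold change over the square root of F. Libraries of 1 number come from 1 mouse per the titles. Their deviations from the day means correlated at 0.157, -0.126 and -0.488. Those of libraries of different numbers correlated at -0.527 to 0.478, so same-number libraries were not the most alike. Replicates are libraries of separate mice, and no 2 agreed within sampling noise. Members and lists were chosen with earlier results of these data known. Named genes were the 12 highest and 12 lowest calls with a mean of at least 5 CPM, a common sign in 3 mice and a named symbol, up to 4 members of each of 45 lists by p, 12 fixed genes, and the 5 highest and 5 lowest differences between series. Chosen after their values were seen were Pttg1, Aurkb, Nek2, Pcna, Clspn, Krt7, Krt8, Krt18, Krt19, Epcam, Sprr1a, C3, Wfdc18, Defb1, Slpi, S100a9, Itgam, Lyz2, Il33, Jun, Hmga2, Slc30a1, Prkg2 and, among the differences between series, Cirbp, Mat2a, Pax9, Selenos and Zfp36l1. Of 976 list symbols 958 were found. The tests were checked on simulated counts with known changes. True log2 changes of 1 passed in 41.1% of cases in the photon series and 87.6% in the proton series. For the difference between series it was 20%. For log2 changes of 2 the shares were 94.8%, 100% and 80.8%. False calls made up 4.4%, 3.7% and 3.8% of calls. A gene that did not pass may therefore still have changed by about 2-fold. Alternatives were DESeq2 1.42.0, library size scaling, other filters, a fit of all 24 photon-series libraries, the mouse block, leaving out each library and, added after seeing the data, leaving out Gm42418 and mitochondrial genes. A few genes are not reported here. Intervals and floors cover counting error only.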

Additional observations from a re-analysis of the deposited data

Results flagged for a closer look

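The change with culture time differed between the photon and the proton series, by the test of the difference itself, for 21 genes. Values are the photon-series log2 fold change minus that of the proton series. The photon-series change was higher for 8 genes, among them Egr1 (2.38), Kctd11 (2.33), Fos (2.32), Fosb (2.24), BC100530 (2.15), Pax9 (1.5) and Zfp36l1 (1.48). It was lower for Spp1 (-3.28), Rn7sk (-2.67), Serpina3m (-2.51), Crisp1 (-2.19), Cd34 (-2.08), Hmga2 (-2.03), Slc30a1 (-1.81), Prkg2 (-1.77), Cirbp (-1.57), Mt1 (-1.41), Mt2 (-1.28), Mat2a (-0.96) and Selenos (-0.94). Egr1, Fos, Hmga2, Prkg2 and Zfp36l1 passed with each of the 12 libraries left out in turn, but with mouse as a block Egr1 and Zfp36l1 did not (adjusted p = 0.0606 and 0.0508).

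Spp1, the secreted matrix protein osteopontin, had 2.52, 1.32 and 1.67 CPM in the day 6 libraries, against 12.4, 12.8 and 33.2 CPM in the day 2 libraries of the photon series, and 19.3, 14.6 and 13.5 CPM in the day 6 libraries, against 17.7, 9.99 and 17.9 CPM in the day 2 libraries of the proton series. Its difference was lost under 9 of 12 omissions and with the block (adjusted p = 0.0917). Prkg2, a cGMP-dependent kinase, had 21.6, 20.7 and 22.2 CPM in the day 6 libraries, against 110.2, 98.7 and 103 CPM in the day 2 libraries of the photon series, and 92.3, 77 and 114 CPM in the day 6 libraries, against 131, 118 and 148 CPM in the day 2 libraries of the proton series. Kctd11 had 26.4, 12.5 and 17.9 CPM in the day 6 libraries, against 151, 90.8 and 83.1 CPM in the day 2 libraries of the proton series, and its groups overlapped in the photon series, with a log2 fold change of -0.20 ± 0.22. Its difference was lost under 6 of 12 omissions and passed with the block (adjusted p = 0.0173). Rn7sk, a small nuclear RNA that restrains transcription elongation and is not polyadenylated, had 69.2, 45.01 and 38.2 CPM in the day 6 libraries, against 7.75, 7.38 and 4.83 CPM in the day 2 libraries of the proton series, and overlapping groups in the photon series (0.22 ± 0.27). Its difference was lost under 4 of 12 omissions and passed with the block (adjusted p = 0.0173). The cause of these differences was not tested.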

How the results depend on the processing

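Counts of genes that passed moved with the libraries fitted, the filter and the block. For culture time in the photon series they ranged from 115 to 469 higher, 146 to 687 lower and 261 to 1156 in all with 1 library left out. No filter on low counts gave 572 higher and 698 lower (1270), the fit of all 24 photon-series libraries 724 and 982 (1706), and mouse as a block 117 and 188 (305). The difference between series ranged from 3 to 33 higher, 3 to 64 lower and 6 to 97 in all with 1 library left out. It gave 28 and 60 (88) with DESeq2, 70 and 88 (158) with no filter, and 3 and 3 (6) with mouse as a block. No gene that passed in the photon series turned its direction under any alternative. Log2 fold changes near 0 that changed sign were those of Mbp (0 with library size scaling; -0.2 to 0.06 with 1 library left out), Hmgn2 (-0.82 to 0.27), Ccnd1 (-0.01 to 0.14), Trp63 (0.03 with library size scaling, 0.01 with the block; -0.19 to 0.18) and Serpina3m (0.04 with library size scaling, 0 with no filter; -0.23 to 0.11). The cause of these shifts was not tested. Of the 106 named genes that passed, 61 did so with each library left out in turn. Depth limits the rarest genes: the log2 fold changes of Dsg1b, Tnf, Col6a1, Cftr, Cybb, Postn and Ccl20 rest on 4 to 9 counts in all on their lower day, and Alox12b and Ifit3b, with 1 and 2, are given as ratios with counting intervals.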

Other observations

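Other gene groups moved in part. Of 25 tested genes of the TGF-beta response and matrix, 2 were higher and 4 lower at day 6, with a median log2 fold change of -0.44. The 4 lower genes became 2 without the day 2 library of mouse 2 or the day 6 library of mouse 1 or 2 and with mouse as a block, and 7 without the day 2 library of mouse 3. Vim, the intermediate filament vimentin, had 22.4, 29.5 and 33.3 CPM in the day 6 libraries, against 115, 126 and 103 CPM in the day 2 libraries. Day 6 libraries lay far under all day 2 libraries (-2.02 ± 0.20, adjusted p = 0.00139). Tgfbi, a secreted matrix adaptor, fell as well (-2.48 ± 0.31, adjusted p = 0.00296). Postn, the matrix protein periostin, went the other way, with 10.5, 16.8 and 31.1 CPM in the day 6 libraries, against 1.97, 0.734 and 0 CPM in the day 2 libraries (4.14 ± 0.67, adjusted p = 0.00788). Of 11 tested Serpin and stefin protease inhibitors 6 were lower and 1 higher, with a median of -1.28. The 6 became 3, 2 or 3 without the day 2 library of mouse 2 or the day 6 library of mouse 1 or 2, and 2 with mouse as a block, and without the day 2 library of mouse 3 there were 7 lower and 2 higher. BC100530, a stefin A family member with near-identical copies, had 25.6, 20.7 and 19.4 CPM in the day 6 libraries, against 171, 251 and 192 CPM in the day 2 libraries (-3.21 ± 0.21, adjusted p = 0.000303).

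Among 15 tested genes of glutathione and aldehyde metabolism 3 were higher and 2 lower, and without the day 2 library of mouse 3 there were 5 higher and 3 lower. Cyp2f2, a cytochrome P450 of secretory epithelia, had 722, 679.8 and 466 CPM in the day 6 libraries, against 132, 102 and 166 CPM in the day 2 libraries. All day 6 libraries exceeded all day 2 libraries (2.22 ± 0.24, adjusted p = 0.00178). Aldh3b2, an aldehyde dehydrogenase of lipid droplets, fell (-2.87 ± 0.36, adjusted p = 0.00291). Tgm2, the protein-crosslinking tissue transglutaminase, and Nupr1, a stress-induced chromatin protein, rose with little spread (2.09 ± 0.15, adjusted p = 0.000343 and 1.97 ± 0.17, adjusted p = 0.000817). None of 15 heat shock genes passed (1 was lower without the day 2 library of mouse 3), and 2 of 18 clock genes were higher, Hlf and Bhlhe41, neither of them with mouse as a block (adjusted p = 0.166 and 0.0974).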
